A study of Mus musculus with 33 samples.

Results

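The 39 genes described here encode the MYC transcription factors and the nucleolar machinery that makes ribosomes, followed across mouse colon organoid lines that carry inducible oncogenic alleles. The members were taken from a list of gene symbols, and a member was every Ensembl identifier of the count tables that carried a listed symbol, so that 39 of 32285 identifiers belonged to the set. They comprised 3 MYC family genes, 4 nucleolar scaffold and shuttling proteins, 4 genes of RNA polymerase I and its factors, 3 core proteins of box C/D and 3 of box H/ACA small nucleolar ribonucleoproteins, 9 genes of small subunit assembly and 13 of large subunit assembly. Of these, 38 reached 1 CPM, the count scaled to the effective library size, in no fewer than 3 libraries and were tested. Mycn, which encodes N-MYC, did not, with 0 to 0.876 CPM over the 33 libraries, and has values but no test.

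The study asked how organoid lines grown from tumours of mini-colons, which are colon epithelial tubes raised in microfluidic hydrogel chips, compare with lines made in organoids and in mice. Bulk 3′ RNA-seq, in which counts come from transcript ends, was done on 33 libraries of 8 lines. All were organoid cultures starved in basal medium, which is depleted of growth factors, before RNA was taken. The paper reports that healthy organoids did not grow in this medium. Every line, the control included, carried Cre-dependent alleles, among them Apc fl/fl and Trp53 fl/fl, and AKP denotes cells in which Cre had recombined them. In vivo AKP (6 libraries) was derived from colon tumours of tamoxifen-treated young adult mice with Cdx2-creERT2, in which the promoter of Cdx2, an intestinal epithelial gene, drives the inducible Cre. Mini-colon AKP #i to #v (3 libraries each) were 5 lines grown from tumour-bearing mini-colons after light had induced Cre there. Organoid AKP (6 libraries) was induced by light in ordinary organoids and passaged in parallel. The control (6 libraries) was the non-induced organoid line with the light- and doxycycline-dependent Cre, its alleles unrecombined. Genotypes were taken from the study's methods, because 3′ counts do not test a deletion inside a gene.

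Total counts per library ran from 2438672 to 8256526, with a median of 3748649, and no replicates of a line agreed within sampling noise. Each deposited table also carried a letter, E or F, whose meaning was not given in the labels or the methods. Replicates 1 to 3 of in vivo AKP, organoid AKP and control and all of mini-colon AKP #i to #iii had letter E (18 libraries), and the other replicates and mini-colon AKP #iv and #v had letter F (15 libraries). Since the letter moved with many members, each AKP line is given both against all 6 organoid AKP libraries and against those of its own letter. The study describes its libraries as independent sets of samples and those of organoid and mini-colon AKP as cultures. No label ties a library to its own animal or tumour, so the p-values reflect variation among the libraries of a line, part of which may be technical. All 7 epithelial markers, among them Epcam, Cdh1 and Cdx2, were detected in every line. In bulk RNA, fewer cells of a type and less RNA per cell cannot be told apart.

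Ribosomes are built in the nucleolus, where RNA polymerase I transcribes ribosomal DNA, small nucleolar ribonucleoproteins modify the transcript, and assembly factors fold and cut it into the small and large subunits. MYC, paired with MAX, binds E-box sequences such as CACGTG and is known to drive genes of each of these steps, as well as genes of nucleotide and amino acid synthesis. In the intestinal epithelium Myc is a target of Wnt and β-catenin signalling, which APC restrains.

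The members' promoters were searched for the canonical E-box, since MYC with MAX binds it. Most nucleolar members moved together in the data, but Myc and Mycl did not always move with them. Promoter windows of RefSeq (build GRCm38.p6, 250 bases before to 50 after a gene's start) were found for 32 of the 39 members. The E-box, CACGTG, reads the same on both strands and lay in the windows of 7 of the 32 members (21.9%), against 11.6% of the 10364 tested genes with a window and 8.09% of all 27025 genes of the table, a gene counting where any of its windows held the motif. The shares in related lists were 19 of 97 further ribosome biogenesis factors (19.6%), 13 of 28 MYC targets outside the nucleolus (46.4%) and 6 of 15 partners and antagonists of MYC. Cytoplasmic ribosomal proteins, with 6 of 58 (10.3%), and cycling cell genes, with 0 of 13, did not exceed the share of tested genes. The 7 were Utp4, Utp20, Wdr43, Pes1, Nle1, Nop2 and Grwd1. These are matches to 6 letters and not measured binding sites. The stretch from 70 bases before to 30 after the start is printed for the 5 members whose E-box lies in it, because all of them recur in the results. Each runs 5′ to 3′ on the gene's strand, with the E-box in capitals. The stretch was chr11:82908366-82908465 (minus) for Nle1, chr8:106893570-106893669 (plus) for Utp4, chr17:71616145-71616244 (plus) for Wdr43, chr11:3963905-3964004 (plus) for Pes1 and chr6:125131813-125131912 (plus) for Nop2.
Nle1: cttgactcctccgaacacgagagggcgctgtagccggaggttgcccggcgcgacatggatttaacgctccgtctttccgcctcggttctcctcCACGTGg
Utp4: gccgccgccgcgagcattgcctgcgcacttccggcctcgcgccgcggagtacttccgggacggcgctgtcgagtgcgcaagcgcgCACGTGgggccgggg
Wdr43: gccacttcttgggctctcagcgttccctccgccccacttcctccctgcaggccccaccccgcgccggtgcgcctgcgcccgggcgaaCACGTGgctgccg
Pes1: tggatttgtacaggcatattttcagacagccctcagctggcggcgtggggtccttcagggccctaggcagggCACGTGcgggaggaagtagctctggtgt
Nop2: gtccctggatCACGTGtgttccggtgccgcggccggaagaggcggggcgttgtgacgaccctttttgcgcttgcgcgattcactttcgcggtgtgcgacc
In Nop2 the E-box stands before the start, and in the other 4 it stands after it.

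**Figure D1:**
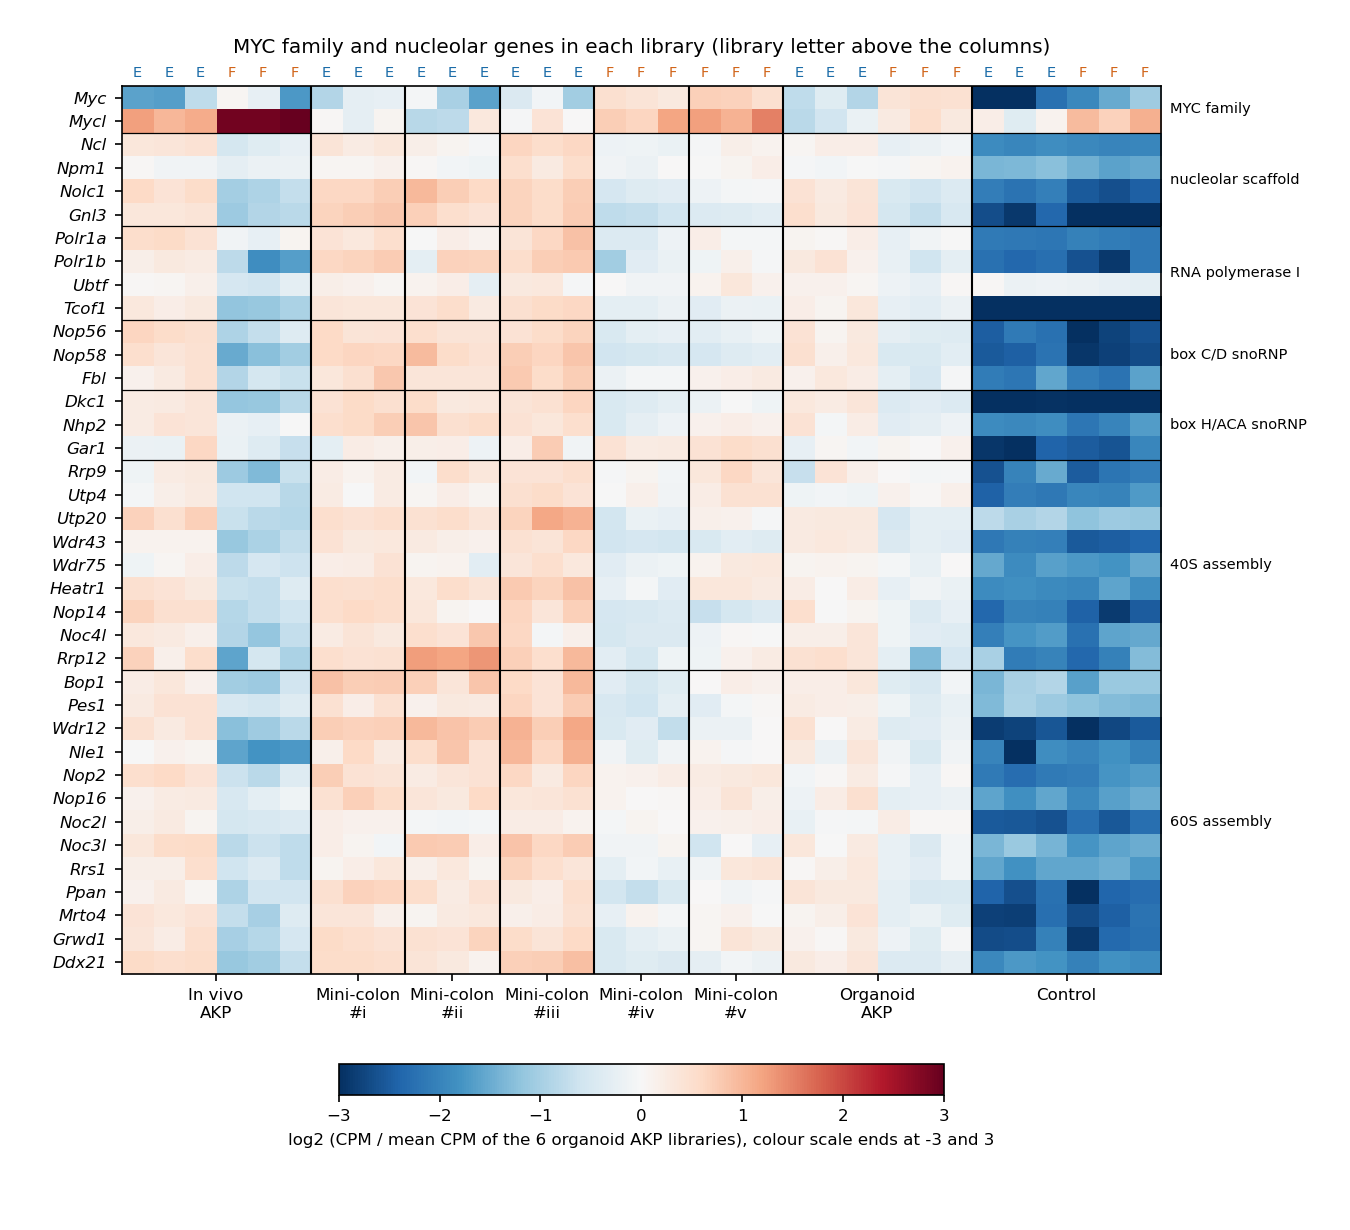
Heat map of the members (rows, by role) in the 33 libraries (columns, by line, with the library letter above), as the log2 ratio of each library's CPM to the organoid AKP mean, on a colour scale from -3 to 3. Control libraries are low for nearly every nucleolar member (median over the 36 from -2.20 to -1.96), and the letter F libraries of in vivo AKP stand below those of letter E (-0.83 to -0.67 against 0.28 to 0.39).

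The comparison of organoid AKP with control asks how the recombined line differs from the non-induced one. Nearly the whole set was higher in organoid AKP: 36 of 38 members rose (edgeR quasi-likelihood test, adjusted p under 0.05), where 37.3% of all 13606 genes tested were higher, and none (0) fell, where 33.6% of all genes were lower. The count of fallen members was 0 also at an unadjusted p under 0.05 and by DESeq2 and limma-voom. The median log2 fold change of the members was 1.98, against 0.06 for all genes. Both members outside the count, Mycl and Ubtf, did not pass.

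Myc (ENSMUSG00000022346, GRCm39 chromosome 15, 61857227 to 61862223, plus strand), the family member most widely expressed in proliferating cells, had 29.4, 56.6 and 76.0 CPM as the lowest, median and highest of the organoid AKP libraries, against 4.22, 12.8 and 25.6 CPM in control. Every organoid AKP library lay above every control library. Its mean was 54.1 ± 21.9 CPM in organoid AKP, against 13.3 ± 8.11 CPM in control (SD, n = 6 each), 3.8-fold higher, with a log2 fold change of 1.93 ± 0.37 (SE, adjusted p = 3.49e-05). Mycl (ENSMUSG00000028654, chromosome 4, 122889408 to 122896282, plus strand) encodes L-MYC, a related factor of more restricted expression. Its lowest, median and highest values were 4.43, 8.0 and 11.1 CPM in organoid AKP, against 5.95, 10.6 and 16.0 CPM in control. The groups overlapped, and the log2 fold change of -0.53 ± 0.35 did not pass (adjusted p = 0.177).

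All 4 scaffold and shuttling proteins rose, with a median log2 fold change of 2.13. Gnl3, the GTPase nucleostemin, had 162, 258 and 374 CPM as lowest, median and highest in organoid AKP, against 23.3, 31.3 and 51.9 CPM in control. No library of one group reached the other, and the change was 7.94-fold (2.99 ± 0.27 on the log2 scale, adjusted p = 6.45e-11). Ncl, which encodes nucleolin, an abundant RNA-binding protein of the nucleolus, rose by 1.93 ± 0.12. Nolc1, a chaperone of small nucleolar ribonucleoproteins, rose by 2.32 ± 0.25 and Npm1, the chaperone nucleophosmin, by 1.43 ± 0.07.

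Among the genes of RNA polymerase I, 3 of 4 rose. Tcof1, whose protein treacle supports ribosomal DNA transcription, changed most of all members. It had 275, 334 and 433 CPM in organoid AKP, against 21.4, 26.0 and 29.3 CPM in control (lowest, median and highest). The groups were far apart, with means of 344 ± 63.9 and 25.6 ± 3.34 CPM in organoid AKP and control (SD, n = 6 each), a 13.4-fold difference (log2 fold change 3.74 ± 0.23, adjusted p = 3.27e-15). Polr1a, the largest catalytic subunit, rose by 2.11 ± 0.13 and Polr1b, its catalytic partner, by 2.37 ± 0.31. Ubtf, the factor UBF that binds ribosomal DNA, had 80.3, 97.8 and 105 CPM in organoid AKP against 77.0, 84.1 and 97.8 CPM in control. Here the groups overlapped and the log2 fold change of 0.16 ± 0.11 did not pass (adjusted p = 0.185).

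The core of both classes of small nucleolar ribonucleoprotein was higher, with all 3 members of each passing the test and a median log2 fold change of 2.53 in each. Dkc1, the pseudouridine synthase dyskerin of the box H/ACA class, had 385, 509 and 664 CPM in organoid AKP, against 44.0, 59.3 and 65.6 CPM in control. That is a 9.16-fold difference with no overlap (3.20 ± 0.24, adjusted p = 4.95e-13). Its partners Gar1 and Nhp2 rose by 2.53 ± 0.20 and 1.91 ± 0.13. In the box C/D class, the scaffold proteins Nop58 and Nop56 rose by 2.58 ± 0.28 and 2.53 ± 0.22, and the methyltransferase fibrillarin (Fbl) rose by 1.91 ± 0.19.

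All 9 genes of small subunit assembly and all 13 of large subunit assembly rose, with median log2 fold changes of 1.82 and 1.96. Wdr12, which with Pes1 and Bop1 forms a complex needed for large subunit ribosomal RNA processing, was the large subunit gene that changed most. It had 69.8, 86.2 and 126 CPM in organoid AKP, against 9.54, 13.5 and 16.0 CPM in control, so that the groups did not overlap. The difference was 6.77-fold (2.76 ± 0.25, adjusted p = 4.92e-11), while its partners Pes1 and Bop1 rose by 1.19 ± 0.15 and 1.15 ± 0.20. On the small subunit side the changes ranged from 1.01 ± 0.22 for Utp20 (adjusted p = 0.000196) to 2.35 ± 0.22 for Nop14, both components of the processome that assembles on the nascent transcript. Rrp12, a factor known from yeast in the export of pre-ribosomal subunits, was called although its libraries overlapped. It had 6.02, 15.8 and 21.5 CPM in organoid AKP and 2.97, 3.75 and 7.67 CPM in control (1.66 ± 0.33, adjusted p = 5.52e-05).

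**Figure D2:**
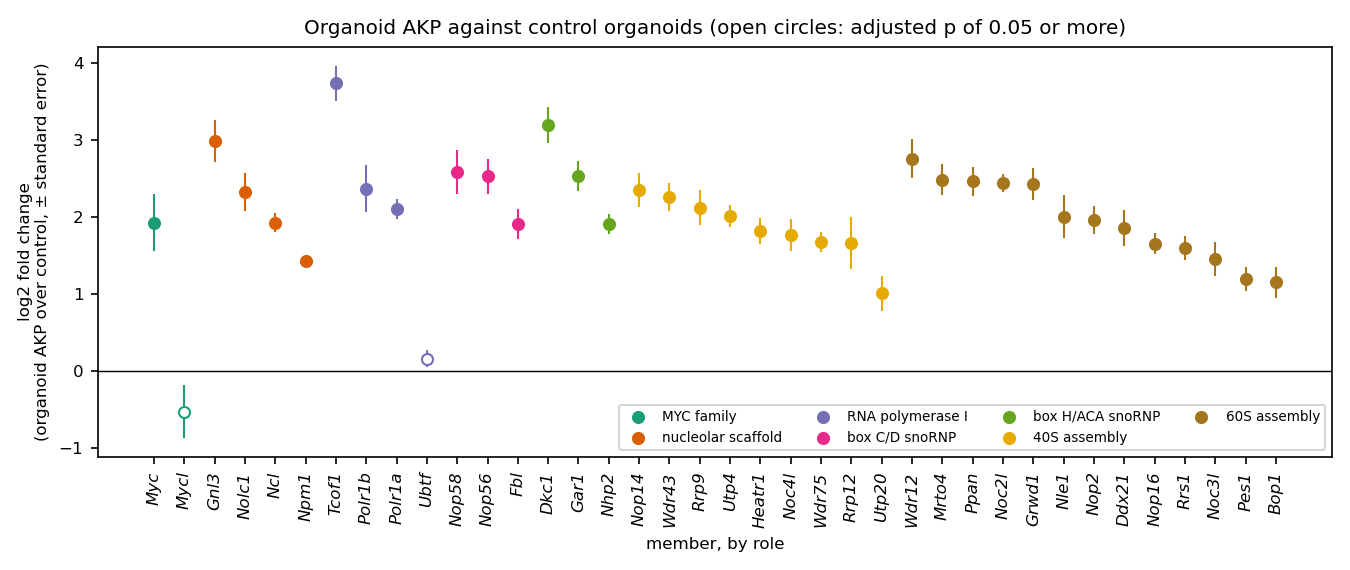
Log2 fold change of each tested member in organoid AKP over control (points, bars are the standard error, n = 6 libraries each), ordered by role, with open points for members at an adjusted p of 0.05 or more. Only Mycl (-0.53) and Ubtf (0.16) are open, and Tcof1 (3.74), Dkc1 (3.20) and Gnl3 (2.99) lie highest.

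The rise was seen within each letter. Among letter E libraries 36 members were higher and 0 lower in organoid AKP, where 34.7% and 35.4% of all genes were, with 0 lower also at an unadjusted p under 0.05. Among letter F libraries 36 were higher and 1 lower, where 38.1% and 38.2% of all genes were. The lower member in letter F was Mycl (log2 fold change -0.57, adjusted p = 0.00244), which in letter E stood at -0.52 without passing. Leaving out any 1 library kept the count of higher members at 36 in both letters.

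Other lists of related genes moved as follows. Of 117 further ribosome biogenesis factors 107 were higher and 4 lower in organoid AKP, with a median log2 fold change of 1.31, led by Exosc8 (3.17), a subunit of the RNA exosome, Rrp1b (2.91) and Mybbp1a (2.4). Of 32 MYC targets outside the nucleolus 29 were higher and 2 lower (median 1.62), among them Cad (2.56), which starts pyrimidine synthesis, Psat1 (3.41), a serine synthesis enzyme, and the histone chaperone Set (1.55). Of 78 cytoplasmic ribosomal proteins 70 were higher and none lower, with a median of 0.51.

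Partners and antagonists of MYC went both ways, with 5 of 15 higher and 6 lower. The antagonists Mxd4 and Mxd1, which compete with MYC for MAX, were lower in organoid AKP, at 22.4 ± 5.60 and 25.0 ± 6.77 CPM, against 292 ± 24.6 and 316 ± 51.0 CPM in control (SD, n = 6 each). Cip2a, an inhibitor of the phosphatase that destabilises MYC, averaged 154 ± 16.7 CPM in organoid AKP, against 18.7 ± 1.79 CPM in control. Cell markers moved as well: all 15 cycling cell genes were higher in organoid AKP, their summed level being 4373 to 5328 CPM against 592 to 808 CPM in control, and 6 of 7 epithelial markers were lower, summing to 3073 to 3556 CPM against 9365 to 10779 CPM. All 6 mitochondrially encoded genes tested were lower, with a median log2 fold change of -0.64 and sums of 23655 to 34272 CPM in organoid AKP, against 39059 to 52032 CPM in control. Vim, an intermediate filament gene of mesenchymal cells, averaged 11.7 ± 7.89 CPM in organoid AKP, against 0.179 ± 0.198 CPM in control (log2 fold change 6.09). The part of cycling, of mitochondrial transcripts and of cell composition in the members' change was not tested.

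The comparison of in vivo AKP with organoid AKP asks where tumour-derived lines differ from the organoid-induced line. Over all libraries Mycl was the only member that passed: 1 of 38 was higher, where 17.4% of all genes were, and 0 were lower, where 17% were. At an unadjusted p under 0.05, 2 members were higher and 2 lower, while DESeq2 called 2 higher and 0 lower and limma-voom 1 higher and 2 lower. Leaving out 1 library gave 1 or 2 higher and 0 to 3 lower, 3 without in vivo AKP replicate 3. Mycl had 15.4, 37.7 and 61.3 CPM in in vivo AKP (lowest, median, highest), against 4.43, 8.0 and 11.1 CPM in organoid AKP. All in vivo AKP libraries exceeded all organoid AKP libraries, by 4.62-fold on average (log2 fold change 2.21 ± 0.33, adjusted p = 3.2e-06).

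For Myc the values were 16.4, 24.6 and 56.0 CPM in in vivo AKP, against 29.4, 56.6 and 76.0 CPM in organoid AKP. These overlapped, and -0.85 ± 0.34 did not pass (adjusted p = 0.0563). The call stood near the threshold, which it reached with limma-voom, with the letter as a covariate, and without in vivo AKP replicate 4 or 5 or organoid AKP replicate 1 or 3, but not with DESeq2. None of the 36 nucleolar members passed, their log2 fold changes lying between -0.51 for Nle1 (adjusted p = 0.0997) and 0.26 for Polr1a (adjusted p = 0.0754), with a median of -0.10. In the wider lists, 2 of the 117 further biogenesis factors were higher and 14 lower, and 3 of the 78 ribosomal proteins were higher and 20 lower. The MYC antagonist Mxd4, which was low in organoid AKP, averaged 67.6 CPM in in vivo AKP against 22.4 CPM in organoid AKP.

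Within the 6 in vivo AKP libraries many nucleolar members fell into separate levels by letter, so the comparison was also made inside each letter. Nle1 (ENSMUSG00000020692, chromosome 11, 82787960 to 82800540, minus strand), a factor known from yeast for maturation of the large subunit and one of the E-box genes, is an example. Its letter F libraries had 5.60, 4.80 and 5.02 CPM in in vivo AKP, against 15.5, 12.2 and 15.5 CPM in organoid AKP. Its letter E libraries had 16.6, 18.1 and 17.5 CPM in in vivo AKP, against 20.4, 14.6 and 21.6 CPM in organoid AKP. In letter F every in vivo AKP library was below every organoid AKP library, while in letter E the groups overlapped.

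**Figure D3:**
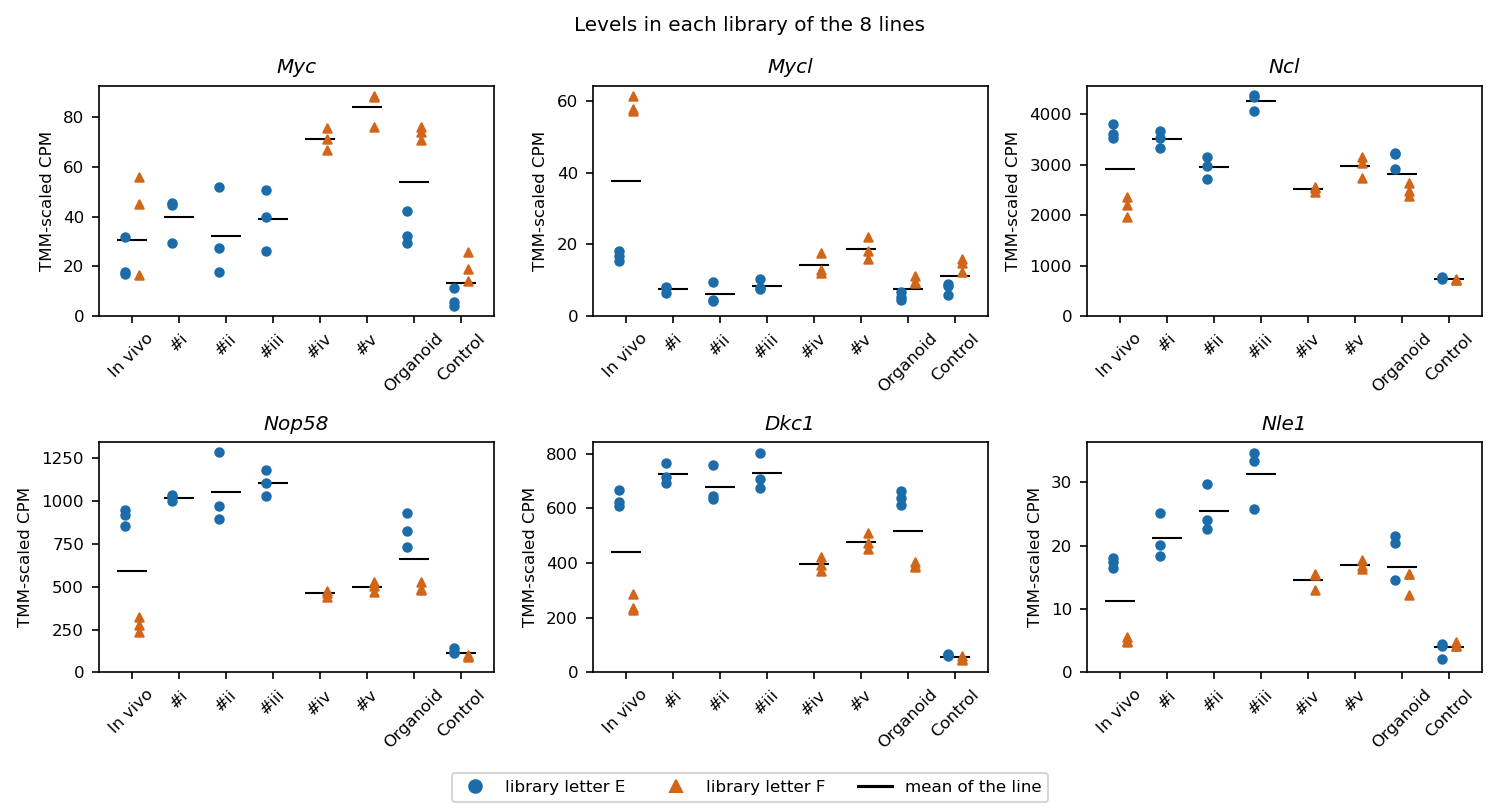
CPM of Myc, Mycl, Ncl, Nop58, Dkc1 and Nle1 in each library (points, coloured by library letter) of the 8 lines, with a bar at the mean of each line. Mycl in in vivo AKP splits into 57.2 to 61.3 CPM (letter F) and 15.4 to 18.2 CPM (letter E), and Nop58 into 233 to 324 CPM (letter F) and 856 to 945 CPM (letter E).

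Within letter E, 9 members were higher in in vivo AKP and 1 was lower, where 14.8% and 15.2% of all genes were. The median log2 fold change over the tested members was 0.14. Mycl led with 18.2, 15.4 and 16.7 CPM in in vivo AKP, against 4.43, 5.20 and 6.74 CPM in organoid AKP (1.60 ± 0.22, adjusted p = 1.03e-05). Nop2, an RNA methyltransferase of the large subunit pathway, had 108, 116 and 102 CPM in in vivo AKP, against 71.5, 78.7 and 90.6 CPM in organoid AKP (0.44 ± 0.11, adjusted p = 0.00323). Polr1a rose by 0.42 ± 0.10 and Utp20 by 0.36 ± 0.11, and in all 4 of these genes the groups were apart. Nop14 (0.34, with overlapping libraries), Nop56 (0.30), Noc2l (0.30), Ddx21 (0.26) and Ncl (0.24) made up the rest. Myc was the member that fell (-0.63 ± 0.22, adjusted p = 0.043), with 17.6, 17.1 and 31.7 CPM in in vivo AKP and 32.0, 42.3 and 29.4 CPM in organoid AKP, which overlapped. Leaving out 1 library gave 4 to 7 higher members, 4 without in vivo AKP replicate 1 or 2 and 5 without organoid AKP replicate 3, and Myc no longer passed without replicate 1 or 2 of either line.

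Within letter F, 1 member was higher and 29 were lower in in vivo AKP, where 25.1% and 23.9% of all genes were, and the median log2 fold change was -0.45. Nle1 fell most (-1.43 ± 0.21, adjusted p = 4.56e-06). Rrp9, a protein of the U3 particle that guides small subunit processing, had 13.3, 11.2 and 17.7 CPM in in vivo AKP, against 28.5, 27.0 and 27.4 CPM in organoid AKP (-0.93 ± 0.16, adjusted p = 3.21e-05). Polr1b had 8.40, 4.0 and 4.58 CPM in in vivo AKP, against 12.3, 9.51 and 11.7 CPM in organoid AKP (-0.83 ± 0.24, adjusted p = 0.00622). In none of these did the groups overlap. Nop58 (ENSMUSG00000026020, chromosome 1, 59724106 to 59758203, plus strand) had 233, 278 and 324 CPM in in vivo AKP, against 485, 481 and 529 CPM in organoid AKP (-0.82 ± 0.10, adjusted p = 8.05e-07). Tcof1 and Dkc1, which stood far above control in organoid AKP, fell by 0.82 ± 0.09 and 0.63 ± 0.09 in letter F, with 152, 156 and 177 CPM and 229, 234 and 288 CPM in in vivo AKP, against 290.5, 275 and 302 CPM and 391, 405 and 385 CPM in organoid AKP. The in vivo AKP values of both lay above the control libraries.

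The lower members of letter F came from every role group but the MYC family. Lower in in vivo AKP were 3 of 4 scaffold proteins, 3 of 4 polymerase I genes, 3 of 3 box C/D and 2 of 3 box H/ACA proteins, 8 of 9 small subunit and 10 of 13 large subunit genes. Those that did not pass were Ncl (-0.18), Polr1a (0.06), Nhp2 (0.13), Rrp12 (-0.39), Pes1 (-0.20), Nop16 (-0.04) and Ppan (-0.27). Nop56 was called lower although its libraries overlapped. Leaving out 1 library gave 21 to 32 lower members, fewest without organoid AKP replicate 6 or in vivo AKP replicate 4.

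MYC itself did not pass within letter F. Myc had 56.0, 45.2 and 16.4 CPM in in vivo AKP, against 70.8, 76.0 and 73.9 CPM in organoid AKP, and although no library of one group reached the other, -0.88 ± 0.45 gave an adjusted p of 0.186. In a model over all 33 libraries with a term for each line and letter, Myc passed in letter F (-0.89, adjusted p = 0.0319) and not in letter E (-0.64, adjusted p = 0.248), so that its call depended on the fit. Mycl was higher in letter F, with 57.2, 57.6 and 61.3 CPM in in vivo AKP, against 9.26, 11.1 and 9.49 CPM in organoid AKP (2.57 ± 0.14, adjusted p = 4.39e-14).

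**Figure D4:**
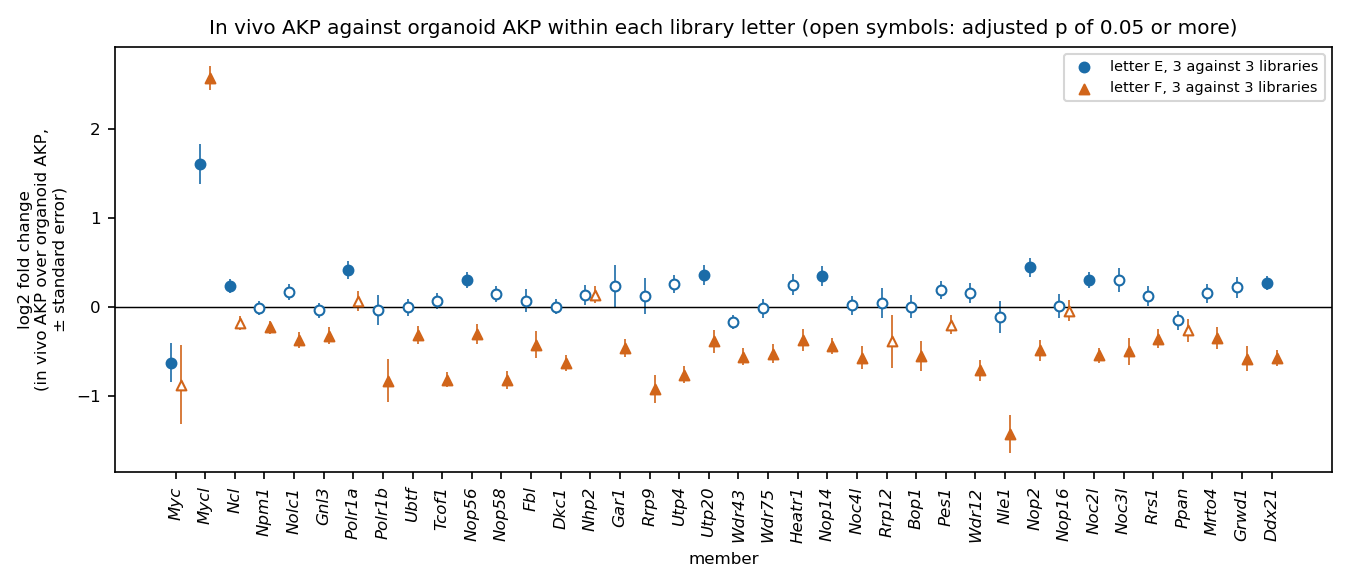
Log2 fold change of each tested member in in vivo AKP over organoid AKP (bars are the standard error), fitted within letter E libraries and within letter F libraries (3 against 3 each). The medians of the members are -0.45 in letter F and 0.14 in letter E, Nle1 lies lowest in letter F (-1.43), and Mycl lies highest in both (2.57 in letter F and 1.60 in letter E).

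Whether the in vivo AKP effect differed between the letters was tested as an interaction. It passed for 24 of 38 members, where 20.8% of all genes did, and with only the compared lines in the fit for 29. In 23 of the 24 the effect was lower in letter F, by 0.40 (Wdr43) to 1.32 (Nle1) on the log2 scale. After Nle1 the differences were -1.06 ± 0.25 for Rrp9 (adjusted p = 0.00108), -1.03 ± 0.14 for Utp4 (adjusted p = 1.03e-07) and -0.97 ± 0.15 for Nop58 (adjusted p = 3.71e-06). Mycl was the exception, with an effect larger in letter F by 0.96 ± 0.31 (adjusted p = 0.0187), and for Myc the interaction of -0.26 ± 0.52 did not pass (adjusted p = 0.795). The same test on organoid AKP against control passed for 6 of 38, a share close to the 13.9% of all genes. All 6 effects were smaller in letter F. They were Mrto4 (-0.70), Ppan (-0.64), Ddx21 (-0.56), Tcof1 (-0.53), Nolc1 (-0.43) and Dkc1 (-0.40). With only the compared lines in the fit 3 members passed, where 14.7% of all genes did.

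Letter F and letter E libraries also differed inside single lines. In in vivo AKP 1 member was higher and 34 were lower in letter F, where 25.5% and 21.6% of all genes were. The falls were largest for Nle1 (-1.72 ± 0.20), Nop58 (-1.71 ± 0.11), Rrp12 (-1.56 ± 0.22) and the RNA helicase Ddx21 (-1.50 ± 0.08), and the higher member was Mycl (1.81 ± 0.16). Myc stood at 0.84 ± 0.38 without passing (adjusted p = 0.072). In organoid AKP 3 members were higher and 26 lower in letter F, where 15% and 15.4% of all genes were, with a median of -0.46. Myc (1.10 ± 0.36) and Mycl (0.85 ± 0.25) were among the higher members there, and Rrp12 (-1.11 ± 0.21) and Gnl3 (-0.98 ± 0.09) led the lower ones. In control 1 member was higher (Mycl, 0.92 ± 0.23) and 8 were lower, where 13.6% and 8.51% of all genes were, with a median of -0.06.

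The median over the members was -1.07 in in vivo AKP, the lowest of the 3 lines that have both letters. In the related lists of in vivo AKP, 96 of the 117 further biogenesis factors were lower and 4 higher in letter F than in letter E, and 25 of the 32 MYC targets were lower and 4 higher. Of the 78 ribosomal proteins 28 were higher and 2 lower in letter F. Against organoid AKP of the same letter, in vivo AKP had 0 of the 117 factors higher and 57 lower in letter F, against 21 higher and 5 lower in letter E.

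Markers of other cells were compared alongside. The summed level of 9 fibroblast and muscle markers was 203 to 276 CPM in letter F and 38.6 to 42.7 CPM in letter E libraries of in vivo AKP, against 4.43 to 22.7 CPM in organoid AKP. Nearly all of it was Vim. Of the other markers in letter F, Col3a1, Pdgfra, Des and Dcn were at 0 counts and the rest had under 10 counts over the 3 libraries. Epithelial markers summed to 3112 to 3449 CPM in in vivo AKP and 3073 to 3556 CPM in organoid AKP, but single markers moved. In in vivo AKP 4 of the 7 were higher and 2 lower in letter F than in letter E, and against organoid AKP of the same letter 3 were higher and 3 lower in letter F, and 1 was higher and 4 were lower in letter E. Cdx2 had 140.0 to 165 CPM in letter F and 50.03 to 63.8 CPM in letter E of in vivo AKP, and Epcam 613 to 673 CPM in letter F and 371 to 396 CPM in letter E. Cycling markers summed to 4052 to 4397 CPM in letter F and 4371 to 4446 CPM in letter E of in vivo AKP, against 4373 to 4873 CPM and 4775 to 5328 CPM in organoid AKP. None of the 15 cycling genes was higher in in vivo AKP, and 7 were lower in letter F, 9 in letter E and 8 over all libraries, where Bub1, a mitotic checkpoint kinase, stood at -0.83. Immune markers summed to 9.61 to 15.2 CPM in in vivo AKP and 5.18 to 12.6 CPM in organoid AKP, and endothelial markers to 2.14 to 5.20 CPM and 0.890 to 3.25 CPM. Their part in the members' difference, and that of the letter, was not tested.

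The 5 mini-colon AKP lines were each compared with organoid AKP, the same libraries that serve the in vivo AKP comparison, so the results are not independent of each other. The question was whether lines from mini-colon tumours differ from the organoid-induced line and among themselves. Some members were higher in every line in at least 1 of the fits, most within the letter in lines #v and #iii, and the counts differed between lines and fits. MYC family genes were called in lines #iv and #v only, each time Mycl, which in line #iv passed within the letter alone.

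Mini-colon AKP #i had 4 members higher and 0 lower than all organoid AKP libraries, where 3.1% and 4.05% of all genes were. Against letter E organoid AKP, its own letter, 7 were higher and 0 lower, where 3.78% and 4.61% were. At an unadjusted p under 0.05 none was lower in either fit, and neither DESeq2 nor limma-voom called one lower. Bop1 changed most in both, with 56.7, 50.8 and 51.7 CPM in line #i, against 35.1, 35.1 and 38.6 CPM in letter E organoid AKP, which did not overlap (0.55 ± 0.13, adjusted p = 0.00943 within the letter, and 0.81 ± 0.22, adjusted p = 0.0256 over all). Over all libraries Ppan (0.63), Nhp2 (0.62) and Nop16 (0.59) also rose. Within the letter the others were Wdr12 (0.47), Nop2 (0.46), Nhp2 (0.39), Gnl3 (0.33), Nop58 (0.30) and Nolc1 (0.29). Within the letter the count ran from 1 to 10 on leaving out 1 library, being 1 without organoid AKP replicate 2, 3 without line #i replicate 2 or 3 and 4 without organoid AKP replicate 3. Over all libraries it ran from 0 to 6, being 0 without line #i replicate 3, 1 without replicate 2, and 2 without replicate 1 or organoid AKP replicate 4 or 5. Myc, with 29.2, 44.7 and 45.6 CPM in line #i, and Mycl, with 7.90, 6.42 and 8.17 CPM, overlapped organoid AKP and did not pass.

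Line #ii had 7 members higher and 0 lower over all libraries, where 11.9% and 12.7% of all genes were, and 4 higher and 0 lower within letter E, where 10.4% and 11.3% were. None was lower at an unadjusted p under 0.05, by DESeq2 or by limma-voom. The members' share within the letter was close to that of all genes. Rrp12 changed most, with 36.2, 34.4 and 38.0 CPM in line #ii, against 20.8, 21.5 and 19.4 CPM in letter E organoid AKP (0.81 ± 0.16, adjusted p = 0.000652 within the letter, and 1.32 ± 0.32, adjusted p = 0.00359 over all). Wdr12 followed, with 180.2, 166 and 155 CPM in line #ii, against 126, 91.7 and 109 CPM in letter E organoid AKP (0.61 ± 0.12, adjusted p = 0.000819). For neither gene did the groups overlap. Nolc1 and Nhp2 passed in both fits (0.40 each within the letter), and Bop1, Noc4l and Nop16 over all libraries only. Within the letter the count was 2 to 6 on leaving out 1 library, being 2 without organoid AKP replicate 2. Over all libraries it was 3 without line #ii replicate 1 or organoid AKP replicate 4 or 5, and 4 without line #ii replicate 3 or organoid AKP replicate 6. Myc was uneven, with 51.7, 27.3 and 17.9 CPM in line #ii, and Mycl had 4.31, 4.47 and 9.51 CPM, neither passing. Mitochondrially encoded genes were lower in line #ii in 3 of 6 tested over all libraries, with a median of -0.65, and in 1 of 6 within the letter. Their sum was 13000.3 CPM in replicate 1 of line #ii, and 23956 and 25273 CPM in its other replicates, against 23655 to 27294 CPM in letter E organoid AKP. Without replicate 1 of line #ii, 3 members were higher over all libraries and 4 within the letter. The part of these transcripts in the members' difference was not tested.

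In line #iii the nucleolar genes stood highest. It had 15 members higher and 0 lower over all libraries, where 7.45% and 8.79% of all genes were, and 16 higher and 0 lower within letter E, where 7.64% and 8.73% were. None was lower at an unadjusted p under 0.05, by DESeq2 or by limma-voom. The nucleolar median within the letter was 0.37. Wdr12 had 189.6, 152 and 205 CPM in line #iii, against 126, 91.7 and 109 CPM in letter E organoid AKP (0.73 ± 0.12, adjusted p = 8.78e-05). Nle1 had 33.4, 25.8 and 34.7 CPM, against 20.4, 14.6 and 21.6 CPM in letter E organoid AKP (0.69 ± 0.18, adjusted p = 0.0067). Utp20 had 70.7, 99.7 and 91.9 CPM, against 54.1, 54.6 and 54.5 CPM (0.68 ± 0.13, adjusted p = 0.000268). Line #iii lay above organoid AKP without overlap in all of these, as it did for Heatr1, a processome component (0.60 ± 0.13, adjusted p = 0.000941). The other 12 were Utp4 (0.58), Noc3l (0.53), Polr1a (0.51), Ddx21 (0.48), Npm1 (0.47), Fbl (0.45), Ncl (0.44), Nop2 (0.42), Nop58 (0.40), Pes1 (0.38), Tcof1 (0.33) and Rrs1 (0.32). Leaving out 1 library gave 11 to 19 within the letter, and 5 to 15 over all libraries, being 5 without line #iii replicate 3, 6 without replicate 1 and 8 without organoid AKP replicate 5. Myc, at 39.8, 50.8 and 26.3 CPM, and Mycl, at 7.46, 10.2 and 7.72 CPM, did not pass.

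Lines #iv and #v were of letter F. Over all libraries line #iv had 0 members higher and 0 lower, where 2.55% and 2.35% of all genes were, with 0 higher and 5 lower at an unadjusted p under 0.05 and none by DESeq2 or limma-voom. Within letter F it had 4 higher and 2 lower, where 9.68% and 8.63% were, and the nucleolar median was -0.02. Mycl had 12.9, 12.1 and 17.5 CPM in line #iv, against 9.26, 11.1 and 9.49 CPM in letter F organoid AKP, with no overlap (0.52 ± 0.19, adjusted p = 0.0408). Nop16 (0.29), Gar1 (0.25) and Nop2 (0.25) were the others higher, and Nop14 (-0.21) and Wdr43 (-0.18) were lower. The members' share of higher calls was close to that of all genes. Leaving out 1 library gave 0 to 3 higher, 0 without line #iv replicate 1, 1 without line #iv replicate 3 or organoid AKP replicate 5 and 2 without line #iv replicate 2 or organoid AKP replicate 4. The lower members numbered 0 without line #iv replicate 1 or 2 and 1 without organoid AKP replicate 4, 5 or 6. Myc had 75.6, 71.1 and 66.6 CPM in line #iv, which overlapped letter F organoid AKP, and did not pass.

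Line #v had 1 member higher, Mycl, and 0 lower over all libraries, where 5.11% and 5.48% of all genes were, with 3 higher and 1 lower at an unadjusted p under 0.05. DESeq2 called 1 higher and 0 lower, and limma-voom none. Within letter F it had 24 higher and 1 lower, where 16.5% and 16.3% were, with a nucleolar median of 0.30. Mycl had 18, 15.8 and 22 CPM in line #v, against 9.26, 11.1 and 9.49 CPM in letter F organoid AKP (0.91 ± 0.16, adjusted p = 3.27e-05), and over all libraries 1.21 ± 0.39 (adjusted p = 0.0412). The call over all libraries was lost without any 1 library of line #v or any of organoid AKP replicates 1 to 4. Rrp12 had 13.7, 16.4 and 18 CPM in line #v, against 12.3, 6.02 and 10.7 CPM in letter F organoid AKP (0.79 ± 0.19, adjusted p = 0.00157). Neither gene overlapped between the groups. Heatr1 (0.50 ± 0.10, adjusted p = 0.000108) and Nop16 (0.49 ± 0.09, adjusted p = 6.8e-05) came next. The lower member was Nop14, with 140.1, 156 and 169.9 CPM in line #v, against 207, 171 and 192 CPM in letter F organoid AKP, also apart (-0.28 ± 0.08, adjusted p = 0.00521). Leaving out 1 library gave 20 to 24 higher members, fewest without organoid AKP replicate 5, and Nop14 no longer passed without organoid AKP replicate 4. Myc had 88.2, 87.9 and 75.9 CPM in line #v, against 70.8, 76.0 and 73.9 CPM in letter F organoid AKP, and the overlapping values did not pass (0.18 ± 0.08, adjusted p = 0.102). The summed fibroblast and muscle markers, mostly Vim, were 40.4 to 118 CPM in line #v, above the organoid AKP range, and their part was not tested.

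**Figure D5:**
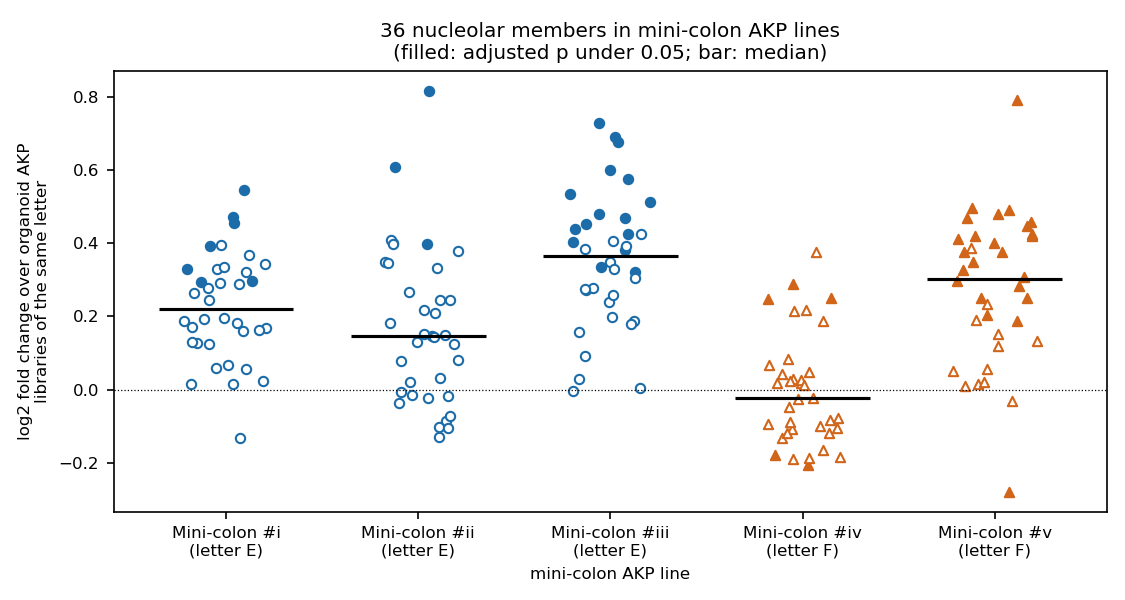
Log2 fold change of the 36 nucleolar members in each mini-colon AKP line over organoid AKP libraries of the same letter (points, filled where the adjusted p is under 0.05, bar at the median). The medians are 0.22, 0.15, 0.37, -0.02 and 0.30 in lines #i to #v.

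The wider lists, within the letter, ran as follows for higher and lower genes. Further biogenesis factors numbered 11 and 0 of 117 in line #i, 22 and 3 in line #ii, 31 and 0 in line #iii, 9 and 11 in line #iv and 32 and 8 in line #v. MYC targets outside the nucleolus numbered 7 and 1 of 32 in line #i, 8 and 3 in line #ii, 12 and 3 in line #iii, 6 and 1 in line #iv and 22 and 0 in line #v. Of all genes, 3.78% were higher and 4.61% lower in line #i, 10.4% and 11.3% in line #ii, and 7.64% and 8.73% in line #iii. The shares were 9.68% and 8.63% in line #iv and 16.5% and 16.3% in line #v, the most of the 5 lines. The biogenesis factors of line #iv were called at about the shares of all genes. Lines #iii and #v, which had most members called, also had most genes of both lists called. Of 15 cycling markers 0 were higher and 3 lower in lines #i and #iii, and 2 were higher and 4 lower in line #ii. In line #v 7 were higher and 2 lower, and the part of cycling in the members' change was not tested.

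Finally, lines #v and #i were set against each other. The paper describes them as enriched in crypt and in lumen tumours. It compared them because they scored highest and lowest for the expression signature of in vivo AKP. Line #v had 0 members higher, where 12.5% of all genes were, and 7 lower, where 11.9% were, with 2 higher at an unadjusted p under 0.05 and 1 higher by DESeq2 and 0 by limma-voom. Gnl3 had 198, 202 and 213 CPM in line #v, against 421, 444 and 461 CPM in line #i (-1.11 ± 0.34, adjusted p = 0.0197). Nop14 had 140.1, 156 and 169.9 CPM in line #v, against 321, 343 and 323 CPM in line #i (-1.08 ± 0.29, adjusted p = 0.00818). Nop58 had 468, 506 and 529 CPM in line #v, against 998, 1038 and 1025 CPM in line #i (-1.03 ± 0.38, adjusted p = 0.0466). These did not overlap, and Wdr12 (-0.84), Wdr43 (-0.73), Ppan (-0.65) and Nhp2 (-0.45) were also lower. Myc and Mycl stood at 1.08 and 1.32, all line #v libraries being above all line #i libraries, without passing (adjusted p = 0.101 and 0.0504). Without any 1 library of line #v or #i, 1 member was lower, or 2 without line #i replicate 1. Line #v had letter F and line #i letter E, so that line and letter cannot be told apart here, and with the letter as a covariate 0 members were lower.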

How the data were processed

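The authors deposited 1 table of read counts per library, made per their methods by aligning 3′ RNA-seq (QuantSeq) reads to GRCm39 with STAR. The counting tool, strand setting and annotation were not given in the sources used here. Counts were used as deposited. Of 32285 Ensembl identifiers 31674 received a symbol, and the 611 without one held 6.85% of all counts. Depth was 2438672 to 8256526 counts per library, which limits precision for members under a few CPM.

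The 13606 genes that reached 1 CPM in 3 or more libraries were tested with edgeR 4.0.16 (R 4.3.3) by robust quasi-likelihood F tests, with TMM scaling, 1 coefficient for each of the 8 lines over all 33 libraries, Benjamini-Hochberg adjustment over all genes tested and a threshold of 0.05. CPM values printed here are scaled by TMM, while the filter used CPM of the raw library totals. Fits within a letter used the 6 libraries of that letter in the lines compared, and the interaction used 1 coefficient per line and letter. Standard errors were derived from the F statistics. Alternatives were DESeq2 1.42.0, limma-voom (limma 3.58.1), relative log expression size factors, no filter, the compared lines only, the letter as a covariate or each letter alone, a replicate block, and leaving out each library. Tests were checked on simulated data.

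The MYC family genes were named in every comparison, with the 4 members changed most in each direction, the members of a described role group, and at most 3 genes of each other list by smallest p. The members and lists were chosen with earlier results of these data known. Npm1 and the ribosomal protein genes have near-identical copies in the genome, so their values are less certain. Whether reads of genes overlapping on opposite strands were told apart is not known, since the strand setting was not given. Values of such genes are also less certain. Promoter sequences were from RefSeq, and those of Myc, Npm1, Tcof1, Fbl, Rrp12, Bop1 and Rrs1 were not used here. One item of the shared genotype is not reported here.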

Additional observations from a re-analysis of the deposited data

Results flagged for a closer look

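Of 114 groups of 6 libraries tested for a library far from the others, 3 had one, and chance gives about 1 in 20. Gar1 had 206 CPM in in vivo AKP replicate 3, against 82.9 to 119 CPM in the others of that line. Heatr1 had 14.6 CPM in control replicate 5, against 11.3 to 12.3 CPM in the others. Nle1 had 2.10 CPM in control replicate 2, against 4.11 to 4.76 CPM in the others.

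The log2 fold change of in vivo AKP over organoid AKP differed between letter F and letter E libraries, as a tested interaction, in 24 members. The test covered 38 members, and 20.8% of all genes passed it. The difference, letter F minus letter E, was -0.43 for Ncl and -0.55 for Nolc1 among scaffold proteins, and -0.89 for Tcof1. Among small nucleolar ribonucleoprotein genes it was -0.61 for Nop56, -0.97 for Nop58 and -0.64 for Dkc1. In small subunit assembly it was -1.06 for Rrp9, -1.03 for Utp4, -0.75 for Utp20, -0.40 for Wdr43, -0.52 for Wdr75, -0.63 for Heatr1, -0.80 for Nop14 and -0.59 for Noc4l. In large subunit assembly it was -0.88 for Wdr12, -1.32 for Nle1, -0.94 for Nop2, -0.85 for Noc2l, -0.81 for Noc3l, -0.49 for Rrs1, -0.51 for Mrto4, -0.81 for Grwd1 and -0.85 for Ddx21. Mycl alone had a positive difference, 0.96.

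In organoid AKP over control the same test passed for 6 of 38 members, a share close to the 13.9% of all genes. The differences were -0.70 for Mrto4, -0.64 for Ppan, -0.56 for Ddx21, -0.53 for Tcof1, -0.43 for Nolc1 and -0.40 for Dkc1.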

How the results depend on the processing

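The 36 members higher in organoid AKP than in control and the rise of Mycl in in vivo AKP kept their side of the threshold under every alternative run. Counts of members in the other comparisons did not, and the cause was not tested. The share of all genes called was taken only for the edgeR fit by line, the fits within a letter and the interaction. Counts of members from the other fits, given below, are therefore not set against such a share and do not show whether members exceed it. Over all libraries the letter as a covariate gave, for in vivo AKP, 2 higher and 6 lower, for organoid AKP against control 1 lower, for lines #i, #ii, #iii and #v 1, 3, 7 and 14 higher, and for #v against #i 0 lower. Letter E alone gave 9 higher and 1 lower in in vivo AKP, 7 higher in #i and 4 in #ii. Letter F alone gave 29 lower in in vivo AKP, 1 lower in organoid AKP against control, 4 higher and 2 lower in #iv, and 24 higher and 1 lower in #v. Fitting only the compared lines gave 10 higher in #i, 12 in #ii and 3 in #v, 4 higher and 23 lower in #v against #i, and 3 interactions in organoid AKP against control. Relative log expression factors and DESeq2 each gave 2 higher in in vivo AKP, DESeq2 1 higher in #v against #i, limma-voom 2 lower in in vivo AKP and 0 higher in #v, and no filter 0 higher in #v and 2 lower in #v against #i. Over the named members an alternative kept direction and side of the threshold 505 times, lost the threshold 76 times, gained it 21 times and turned the direction 18 times. No scaling moved the median of all genes by over 0.07 (log2).

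Deviations of same-numbered libraries from their line means correlated by -0.07 to 0.38, and 8 of 30 correlated best with their own number. In lines with both letters these deviations carry the letter difference, and lines #iv and #v were matched to letter E organoid AKP libraries. The check therefore cannot settle whether the replicate numbers pair the libraries. With the replicate block, which sets letter F lines against letter E organoid AKP libraries, 2 were lower in in vivo AKP, 1 lower in organoid AKP against control, 25 higher in #iii, 3 higher and 25 lower in #iv, 6 higher and 13 lower in #v, and 4 higher and 23 lower in #v against #i. For the block, too, the share of all genes called was not taken.

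Log2 fold changes of MYC genes that changed sign, none of them past the threshold over all libraries, were, with the letter as a covariate, the letter alone and the block in that order, 0.19, 0.20 and 0.20 for Myc and 0.78, 0.43 and 0.45 for Mycl in #i, 0.58, 0.22 and 0.16 for Mycl in #ii, and 0.19, 0.20 and 0.15 for Myc in #iii. Myc in #iv was -0.039 with the covariate and -0.042 in letter F alone, and Mycl in #v against #i was -0.027 with the covariate. On leaving out each library Mycl ran from -0.20 to 0.031 in #i and from -0.087 to 0.23 in #iii.

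Leaving out each library gave, over all libraries, 1 to 2 higher and 0 to 3 lower in in vivo AKP, 0 to 6 higher in #i, 3 to 9 in #ii, 5 to 15 in #iii and 0 to 1 in #v, and 1 to 2 lower in #v against #i. Within a letter, left out after seeing the data, it gave 4 to 7 higher and 0 to 1 lower (E) and 21 to 32 lower (F) in in vivo AKP, 1 to 10 higher in #i, 2 to 6 in #ii, 11 to 19 in #iii, 0 to 3 higher and 0 to 2 lower in #iv, and 20 to 24 higher and 0 to 1 lower in #v. Mycn, under 1 CPM in every library, was left untested, and low members such as Polr1b and Nle1 carried larger errors.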
